A study of Mus musculus with 6 samples.

Results

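Bc1 (brain cytoplasmic RNA 1) is a short noncoding RNA, and its row is 1 of the 20323 genes with values in this series. The row carries no symbol in the deposited table: it is listed by gene number 100568459, which the RefSeq annotation of GRCm38.p6 names Bc1. The gene was chosen by its measured values, namely its log2 level and its share of reads in these 6 libraries, so both are described here without a test.

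Bc1 is made by RNA polymerase III, the enzyme that also makes transfer RNAs, and it descends from a transfer RNA gene. In rodents it is found mainly in neurons, where it is carried into dendrites. There it binds the poly(A)-binding protein and the helicase eIF4A and holds back the start of translation. Its 5′ part is the source of the ID family of short repeats, copies of which are scattered through the rodent genome and through the transcripts of other genes.

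The 6 libraries, each counted here as 1 mouse, came from the genotype Nestin-CreERT2;Rosa26-mGFP. In these mice tamoxifen-dependent Cre under the Nestin promoter switches on a membrane GFP in Nestin-expressing cells and thereby marks their later progeny too. GFP-positive hippocampal cells were taken by magnetic sorting. All mice had been fed the copper chelator cuprizone, which strips myelin, for 10 weeks and then had 4 weeks of recovery. During recovery 3 mice were given vehicle (0.1% bovine serum albumin in saline) and 3 were given neuregulin 1 beta 1 (Nrg-1β1), a ligand of ErbB receptors. The Nrg-1β1 dose was 60 µg per kg per day in the series text, while the sample labels write the same figure in grams. Mouse age is not stated in the labels. No library was made from animals without cuprizone.

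The libraries differed in depth and in make-up before any gene is considered. Vehicle libraries 1 and 3 held 72953034 and 47076006 recovered reads, and the other 4 held 567073 to 1327003. The cells are labelled neural progenitors. All 17 markers of neurons, 7 of astrocytes, 7 of oligodendrocytes and 7 of microglia on the lists used here had reads in both groups. Most genes met that mark, since each library had a read for 15624 to 18908 of the 20323 genes. The myelin gene Mbp was among the 5 genes with the most reads in 4 libraries. Vehicle library 3 held 1045 reads of Xist, made from the inactive X chromosome, and 1994 of Ddx3y, a gene on the Y chromosome, while vehicle libraries 1 and 2 had 3255 and 216 reads of Xist against 82 and 1 of Ddx3y. The Nrg-1β1 libraries held 2, 3 and 1 reads of Xist against 29, 22 and 15 of Ddx3y. Xist thus separated the groups, so treatment and the sex-linked RNA content of the libraries cannot be told apart in any comparison of the groups. Whether vehicle library 3, with many reads of both genes, held RNA of more than 1 animal was not tested. In bulk RNA of this kind, fewer cells of a type and less RNA per cell cannot be told apart.

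The Bc1 transcript is shown to let its length and its shared and unshared parts be seen beside the counts. It lies at chr7:144914470-144914637 on the plus strand of GRCm38 in the GENCODE M21 annotation, as a single exon of 168 bases annotated as an intergenic noncoding RNA, and the RefSeq model of the same gene is 154 bases long. The build used by the authors is not given in the sources used here, and the gene was matched by number, not by position. Lower case marks the bases that lie in a run of at least 50 bases shared with a transcript of another gene, and capitals mark the bases that do not.
Bc1: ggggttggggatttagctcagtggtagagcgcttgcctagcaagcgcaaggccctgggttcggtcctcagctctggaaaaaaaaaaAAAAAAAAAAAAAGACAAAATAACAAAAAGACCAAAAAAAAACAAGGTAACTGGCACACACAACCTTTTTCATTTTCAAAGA

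The transfer RNA-like 5′ part is the shared one: bases 1 to 86 occur in such runs and bases 87 to 168 do not. An unbroken stretch of 23 adenines spans bases 77 to 99, and 41.7% of all bases are adenine. Among GENCODE transcripts of other genes, 2 genes share a run of 50 bases with Bc1 on the same strand and 3 on the opposite strand. At 25 bases the numbers rise to 176 and 174. The pseudogene Bc1-ps1 has no row in the deposited table.

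Bc1 varied more between libraries than almost any other gene, and it did so inside both groups. Its level was 16.23, 18.06 and 12.95 in vehicle libraries 1 to 3 on the deposited log2(normalized count + 4) scale. In Nrg-1β1 libraries 1 to 3 it was 13.88, 16.00 and 19.72. The lowest and the highest library of the vehicle group thus differed 34.6-fold in normalized count, those of the Nrg-1β1 group 57.2-fold, and the extremes of the 6 libraries 109-fold. The groups overlapped along most of their length, with the lowest library in the vehicle group and the highest in the Nrg-1β1 group.

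**Figure D1:**
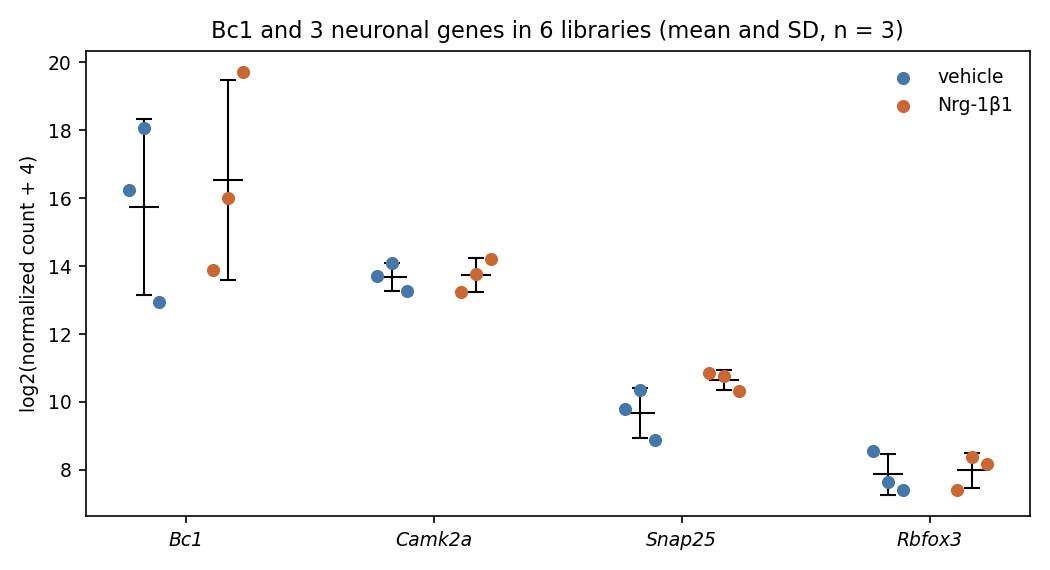
Levels of Bc1, Camk2a, Snap25 and Rbfox3 as log2(normalized count + 4), 1 point per library, with the mean and SD of each group (n = 3). The Bc1 points run from 12.95 to 19.72 and overlap between groups, while each of the 3 neuronal mRNAs spans less than 2 log2 units.

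The mean Bc1 level was 15.75 ± 2.59 (SD, n = 3) for vehicle mice and 16.53 ± 2.96 (SD, n = 3) for Nrg-1β1 mice. The difference of 0.78 was smaller than the pooled SD of 2.78 within groups. It turned to -0.61 without vehicle library 3 and to -0.81 without Nrg-1β1 library 3, and was 1.94 without vehicle library 2 and 2.11 without Nrg-1β1 library 1. In the order of levels, vehicle library 3 was followed by Nrg-1β1 libraries 1 and 2, vehicle libraries 1 and 2, and Nrg-1β1 library 3. Each neighbouring pair in that order lay closer together than the SD of either group.

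As a share of all recovered reads, Bc1 ranged from a minor to the leading transcript. It took 1271095 of the reads of vehicle library 1, which is 1.74% (95% exact interval 1.739 to 1.745%). In vehicle library 2 it took 88746 reads, 8.25% (8.197 to 8.301%), and in vehicle library 3 131127 reads, 0.279% (0.277 to 0.2801%). Vehicle library 2 is thus the vehicle library in which Bc1 had more reads than any other gene, while in vehicle library 3 it ranked 26th.

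The Nrg-1β1 libraries showed the same kind of spread. Bc1 had 2921 reads in library 1, 0.515% (0.4966 to 0.5341%), and 12821 in library 2, 1.93% (1.901 to 1.967%). In library 3 it had 284190 reads, 21.4% (21.35 to 21.49%), or about 1 read in every 5. The mean Bc1 share was 3.42% ± 4.24 (SD, n = 3) for vehicle mice and 7.96% ± 11.7 (SD, n = 3) for Nrg-1β1 mice, so each SD exceeded its mean. The ratio of these means, 2.32, was 7.87 without vehicle library 2 and 0.358 without Nrg-1β1 library 3. The intervals cover counting error only, and are narrow because the counts are large. High and low shares both occurred among the 4 shallow libraries, which ran from 0.515% to 21.4%, and the 2 deep libraries gave 1.74% and 0.279%.

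**Figure D2:**
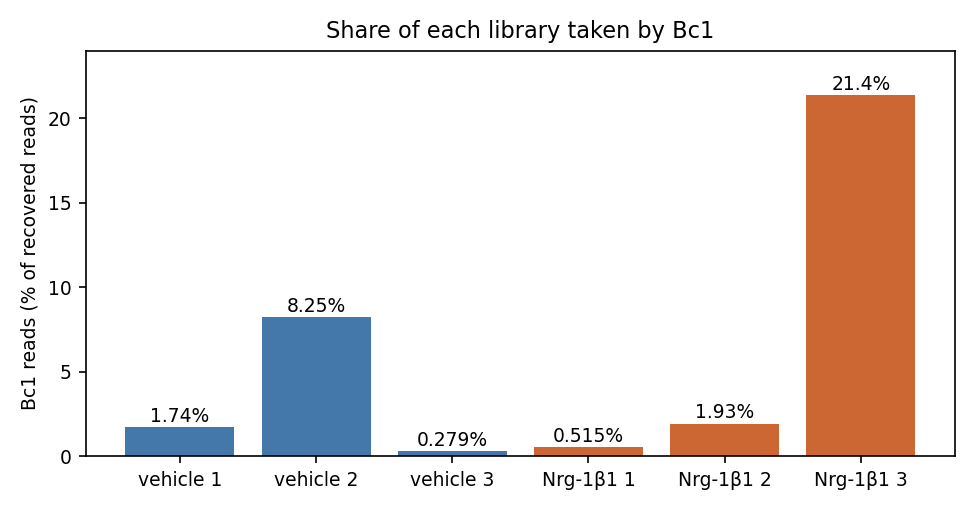
Share of recovered reads assigned to Bc1 in each library, in percent, with vehicle libraries in blue and Nrg-1β1 libraries in orange. Vehicle library 2 (8.25%) and Nrg-1β1 library 3 (21.4%) stand above the other 4, which hold at most 1.93%.

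Per base of transcript, and with its RefSeq length, Bc1 lay above both other abundant transcripts compared here in 5 of 6 libraries. With its RefSeq length, Bc1 had 113000, 536000 and 18100 on the RPKM scale (reads scaled to transcript length and library total) in vehicle libraries 1 to 3 and 33400, 126000 and 1390000 in Nrg-1β1 libraries 1 to 3. The mitochondrial gene mt-Co1, which encodes a subunit of cytochrome c oxidase, had 29200 to 60800 by the same measure, and Mbp 9790 to 24200. The exception was vehicle library 3, where the per-length value of Bc1 was below both genes. In Nrg-1β1 library 1 it was close to that of mt-Co1 (32100). The lengths used for mt-Co1 and Mbp were median lengths of GENCODE transcripts. With the longer GENCODE transcript of Bc1 (168 bases against 154), Bc1 would fall below mt-Co1 in Nrg-1β1 library 1 as well.

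Set against all genes, the spread of Bc1 stood near the top. Among the 10162 genes with a mean log2 value of at least 4.49, the median of all genes, its SD within groups of 2.78 ranked 2nd, where the median gene had 0.42. Only a gene listed by number (383770, SD 3.10) had more. Among genes with a mean of at least 8, a limit chosen after the values were seen, Bc1 ranked 1st of 1460 genes, and the row named for the microRNA Mir682 came next with 1.70. By its range over the 6 libraries (6.77) Bc1 ranked 5th, after Lrrc17 (7.43), Gm20594 (7.01), Rplp2 (6.83) and Atp5k (6.79).

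**Figure D3:**
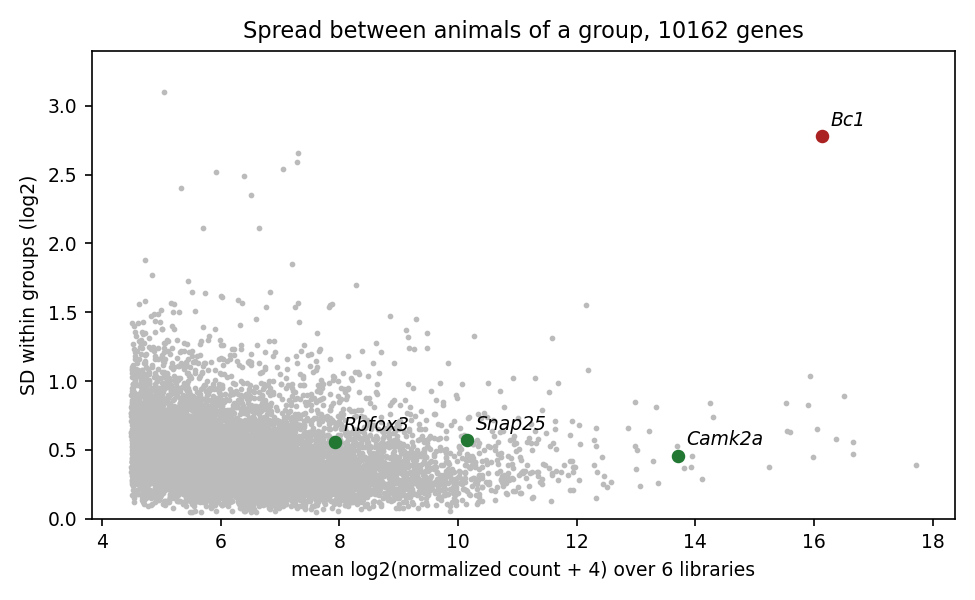
SD within groups (log2) against mean log2(normalized count + 4) for 10162 genes, 1 grey point per gene. Bc1 combines a high mean (16.14) with an SD of 2.78, while Camk2a, Snap25 and Rbfox3 lie among the other genes.

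The widest range of all thus belonged to Lrrc17, the gene whose transcript shares the longest run with Bc1, 82 bases on the same strand (bases 5 to 86). Lrrc17, which encodes a leucine-rich repeat protein, was at 4.24, 2.83 and 3.11 in the vehicle libraries and at 7.92, 10.25 and 3.71 in the Nrg-1β1 libraries. Akap5, an anchoring protein gene of the postsynaptic density, shares 77 bases on the opposite strand. It was at 7.74, 4.99 and 5.65 in vehicle and 7.82, 9.37 and 4.26 in Nrg-1β1. Both genes were therefore highest in Nrg-1β1 library 2. In Nrg-1β1 library 3, where Bc1 peaked, Akap5 was at its lowest and Lrrc17 was within the range of the vehicle libraries.
Their reads were few beside those of Bc1: in Nrg-1β1 library 2 Lrrc17 had 238 and Akap5 129, against 12821. Whether reads of the shared stretch were assigned to one gene or another was not tested, since the deposited table holds totals per gene. Tatdn1 (57 bases, same strand) and Elp6 (67 bases, opposite strand) had at most 4 and 7 reads in any shallow library.

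Neuronal mRNAs did not swing with Bc1 to anything like the same extent. Rbfox3, which encodes the neuronal nuclear protein NeuN, was at 8.55, 7.63 and 7.41 in vehicle libraries 1 to 3 and at 7.40, 8.39 and 8.16 in Nrg-1β1 libraries 1 to 3. Snap25, which encodes a membrane fusion protein of synaptic vesicle release, was at 9.80, 10.35 and 8.87 in vehicle and at 10.86, 10.77 and 10.32 in Nrg-1β1. Their ranges were 1.14 and 1.99 on the log2 scale against 6.77 for Bc1. In vehicle library 2, where Bc1 was high, Rbfox3 was in the lower part of its range. In Nrg-1β1 library 1, where Bc1 was low, Snap25 was at its highest. Vehicle library 3 went the other way: Bc1 and Snap25 (8.87) were both at their lowest there, and Rbfox3 (7.41) was next to its lowest (7.40).

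The number of Bc1 reads per read of a neuronal gene changed accordingly. Per Snap25 read there were 86.6, 211 and 17.1 Bc1 reads in vehicle libraries 1 to 3 and 8.14, 37.7 and 678 in Nrg-1β1 libraries 1 to 3, an 83.3-fold span. Per read of the 17 pan-neuronal genes together, Bc1 had between 1.40 (vehicle library 3) and 77.4 reads (Nrg-1β1 library 3), a 55.3-fold span. The summed normalized count of that list was 7576, 9709 and 5677 in vehicle and 9510, 11824 and 11154 in Nrg-1β1, and so differed at most 2.08-fold between libraries. None of its 17 members was at 0 reads in either group, but most genes had a read in each library.

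In the comparison of Nrg-1β1 with vehicle over all genes, limma called 1.06% of genes at an adjusted p of 0.05, 0.438% higher and 0.625% lower, and groups that do not overlap were seen for 17.7% of genes. An unadjusted p under 0.05 was reached by 13.0% of all genes (2644 of 20323), the share against which such counts are to be read. Of the 17 pan-neuronal genes 0 passed (3 at an unadjusted p under 0.05, and 0 with limma-voom). Their median difference was 0.31 on the log2 scale against 0.03 over all genes, but 0.06 against 0.04 without vehicle library 3, and 0.17 with quantile normalization. Rbfox3 differed by 0.12 ± 0.34 (SE, adjusted p = 0.887, limma) and Snap25 by 0.98 ± 0.35 (SE, adjusted p = 0.212, limma). Slc17a7, the vesicular glutamate transporter gene of excitatory neurons, had the smallest p of the list and differed by 1.16 ± 0.31 (SE, adjusted p = 0.0788, limma). It passed after centring on library medians (1.37, adjusted p = 0.0362, limma).

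Transcripts that, like Bc1, are carried into dendrites had a median range of 1.21 over the 6 libraries, against 6.77 for Bc1. The widest was that of the activity-induced gene Arc, 4.56, and it did not follow Bc1: Arc was at 9.68, 7.28 and 8.60 in vehicle and 7.40, 5.11 and 6.75 in Nrg-1β1. Of 20 such mRNAs 1 rose and 0 fell, with 6 at an unadjusted p under 0.05 and 0 called with limma-voom. The 1 that rose was the AMPA receptor subunit gene Gria1 (1.44 ± 0.31, SE, adjusted p = 0.0286, limma). The list median was 0.18, or -0.04 after quantile normalization. The Gria1 difference was 1.18 with quantile normalization, 1.44 among genes averaging 50 normalized counts or more, 1.46 both with limma-voom and with library totals that include Bc1, and 1.20 to 1.66 with any 1 library left out. Its adjusted p in limma was above 0.05 in each of these. Gria1 was at 8.74, 9.36 and 9.01 in vehicle and 10.94, 10.45 and 10.03 in Nrg-1β1. Camk2a, the kinase gene whose mRNA is a standard example of dendritic transport, followed the order of Bc1 closely but with a small amplitude. It was at 13.71, 14.09 and 13.26 in vehicle and 13.23, 13.77 and 14.21 in Nrg-1β1, a range of 0.99. Bc1 reads per Camk2a read went from 0.808 in vehicle library 3 to 45.5 in Nrg-1β1 library 3.

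The mRNAs listed here as those of Bc1 partners, or of proteins in its action on translation, did not pass the threshold on the deposited scale. Of 21 such genes 0 passed (3 at an unadjusted p under 0.05, and 0 with limma-voom), and the list median was -0.05, turning to 0.16 after centring on library medians, 0.04 with totals without Bc1 and 0.01 without vehicle library 1. Pura, which encodes a single-strand nucleic acid-binding protein of dendritic RNA granules, differed by 1.14 ± 0.33 (SE, adjusted p = 0.0983, limma), and passed after centring (1.36, adjusted p = 0.0371). Eif4a1, which encodes the initiation helicase, differed by 0.93 ± 0.33 (SE, adjusted p = 0.209, limma). The largest range in the list was 2.02, for Pura. Binding of the listed proteins to Bc1 was not measured in these data.

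The RNA polymerase III machinery gave the same picture. Of 29 subunit and factor genes 0 passed (2 at an unadjusted p under 0.05, and 0 with limma-voom), with a median of -0.09 that turned to 0.13 after centring, 0.02 after quantile normalization and 0.05 without Nrg-1β1 library 2. The subunit gene Polr3gl differed by 1.28 ± 0.33 (SE, adjusted p = 0.0658, limma), and passed after centring (1.49, adjusted p = 0.0259). Snapc3, of the complex that serves small nuclear RNA promoters, differed by -1.15 ± 0.53 (SE, adjusted p = 0.362, limma). The widest range, 3.18, was that of Gtf3a, which encodes the factor for 5S ribosomal RNA genes. It was at 3.67, 6.85 and 4.34 in vehicle and 3.84, 5.49 and 6.75 in Nrg-1β1, from as few as 2 reads in Nrg-1β1 library 1. The summed normalized count of the 29 genes was 1615 to 1951 over the 6 libraries.

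Other short RNAs had few reads. Of 16 further RNA polymerase III transcripts on the list 3 had values. Rn7sk, the RNA that restrains the elongation factor P-TEFb, had 296, 2 and 94 reads in vehicle and 0 in each Nrg-1β1 library. Rmrp, the RNA of the ribonuclease MRP, had 4, 1 and 9 reads in vehicle and 0 in the Nrg-1β1 libraries, and Vaultrc5, a vault RNA, had 2 reads in vehicle library 3 and 1 in Nrg-1β1 library 2. None of the 3 passed (limma, with 1 at an unadjusted p under 0.05, and 0 with limma-voom), and at the depth of the Nrg-1β1 libraries a difference was not detectable for Rmrp and Vaultrc5. The 85 genes with symbols of small nucleolar, small nuclear, Y or micro RNAs took 0.0115 to 0.0749% of reads between them, and Mir682 had the most reads of these in every library (49005, 64 and 9267 in vehicle, 12, 18 and 136 in Nrg-1β1).

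The noncoding RNAs that neurons make in longer form had a median range of 1.54 over the 6 libraries, against 6.77 for Bc1. Of 7 neuronal long noncoding RNAs 0 passed (1 at an unadjusted p under 0.05, and 0 with limma-voom), with a median of 0.17. The imprinted Rian was at 8.86, 9.44 and 8.28 in vehicle and 9.92, 10.35 and 9.93 in Nrg-1β1 (difference 1.21 ± 0.32, SE, adjusted p = 0.0673, limma). It passed after centring (1.42, adjusted p = 0.0249, limma) and with library totals without Bc1 (1.30, adjusted p = 0.0428, limma). Snhg14, the host of imprinted small nucleolar RNAs, had at most 13 reads in any library and differed by 0.85 ± 0.48 (SE, adjusted p = 0.485, limma).

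Markers of other cell types that the sorted fraction could hold were set beside Bc1 in the same way. Blood vessel, choroid plexus and microglial markers separated the groups, while high and low Bc1 levels occurred in both groups. Within vehicle the endothelial and choroid plexus sums ran in the reverse order of Bc1, and within Nrg-1β1 they did not. The microglial sums did so in neither group. The summed normalized count of the 6 endothelial markers was 931, 463 and 2211 in vehicle libraries 1 to 3 and 77, 112 and 109 in Nrg-1β1 libraries 1 to 3. Of these 5 fell, led by Ly6c1 (-3.59), Slco1a4 (-3.62), Cldn5 (-3.47) and Flt1 (-2.52). The 6 choroid plexus markers summed to 4437, 1516 and 4841 in vehicle and 160, 128 and 197 in Nrg-1β1, and 4 of them fell, Ttr (-4.85), Kl (-3.44), Kcne2 (-2.79, with 0 reads in the Nrg-1β1 libraries) and Kcnj13 (-2.68). The 7 microglial markers summed to 5768 to 9063 in vehicle and 2128 to 2646 in Nrg-1β1, and 5 fell, among them P2ry12 (-2.03), Siglech (-1.66) and Csf1r (-1.43). Their part in the Bc1 values was not tested.

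The neural and glial markers changed less. Sox1, a transcription factor gene of neural stem cells, was the 1 of 8 progenitor markers that rose (1.96 ± 0.39, SE, adjusted p = 0.0194, limma). It did not pass with quantile normalization (1.82, adjusted p = 0.097, limma) or among genes averaging 50 normalized counts or more (1.96, adjusted p = 0.0617, limma). The progenitor list as a whole had a median of -0.19, which was 0.12 without Nrg-1β1 library 1 and 0.03 after centring, with 4 of 8 members above 0 and 5 at an unadjusted p under 0.05. Nes, which encodes the intermediate filament nestin, was at -1.65, Prom1 at -1.58 and Vim at -1.41, values named after they were seen. None of 7 neuroblast, 7 astrocyte, 7 oligodendrocyte and 5 oligodendrocyte progenitor markers passed in limma, with 1, 3, 2 and 2 at an unadjusted p under 0.05 and 0 in each with limma-voom. The medians of these 4 lists were 0.11, 0.68, -0.46 and 0.39, against 0.03 over all genes. In the same order, 4 of 7, 7 of 7, 0 of 7 and 3 of 5 members were above 0. The neuroblast median turned to -0.33 without vehicle library 1 and -0.04 without Nrg-1β1 library 1, and the oligodendrocyte progenitor median was 0.14 without vehicle library 3. Their members with the smallest p were Calb2 (1.17) and Dcx (1.23), Aldh1l1 (0.87) and Gja1 (0.73), Mag (-0.89) and Mal (-0.78), and Olig1 (1.11) and Pdgfra (0.90). The summed astrocyte count was 22130 to 33676 in vehicle and 37555 to 41730 in Nrg-1β1, and the summed oligodendrocyte count 93172 to 190019 and 107002 to 140346.

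Over these 14 lists 2 genes rose and 14 fell of 149 measured. These 16 calls became 0 without vehicle library 2 or without any 1 of the Nrg-1β1 libraries, 1 without vehicle library 3 and 6 without vehicle library 1. They were also 0 when the 2 libraries with the most Bc1 (vehicle library 2 and Nrg-1β1 library 3) were both left out, and 1 with limma-voom. Without those 2 libraries the endothelial median went from -3.05 to -3.42, the microglial median from -1.45 to -1.64, Sox1 from 1.96 to 2.76 and P2ry12 from -2.03 to -1.84.

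Genes whose levels ordered the libraries as Bc1 did were sought by Pearson correlation over the 6 libraries, as a description with n = 6. All 6 points share their depth and scaling with Bc1. Over 10161 genes the median r was 0.02, and 4.66% of genes had an r of at least 0.8. The 10 highest were Hspe1, Pde8b, Set, Snx5 and Pitpna (r of 0.99 each) and D430019H16Rik, Nudt11, Rpl10a, Rangap1 and Cnih2 (0.98 each). Hspe1 encodes the mitochondrial chaperonin Hsp10, Pde8b a cyclic AMP phosphodiesterase, Snx5 a sorting nexin and Cnih2 an auxiliary protein of AMPA receptors.

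The amplitude of these genes was small. Their ranges were 0.73 to 2.03, apart from Rpl10a, a gene of the large ribosomal subunit, with 4.56. Rpl10a was at 6.88, 8.44 and 5.37 in vehicle libraries 1 to 3 and at 5.93, 6.73 and 9.93 in Nrg-1β1 libraries 1 to 3, so both libraries rich in Bc1 were also rich in Rpl10a. Its reads ranged from 11 in Nrg-1β1 library 1 to 1886 in vehicle library 1. Camk2a came 15th of all genes (0.98). Which genes head this list depends on the libraries: 2 to 5 of the 10 remained among the highest 10 when 1 library was left out, and 1 after centring on library medians. The 2 named genes farthest from Bc1 were Ripor1 and Spats2l (-0.98 each).

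**Figure D4:**
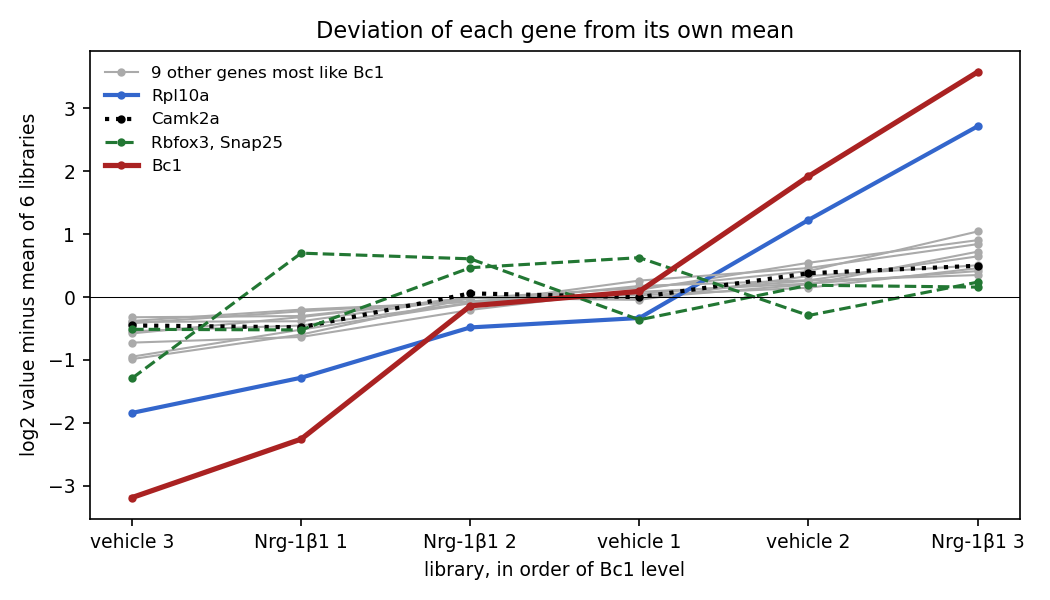
Log2 value of each gene minus its own mean over the 6 libraries, with libraries ordered from the lowest to the highest Bc1 level. Bc1 (red) climbs 6.77 units and Rpl10a (blue) 4.56, the other most alike genes and Camk2a climb at most 2.03, and Rbfox3 and Snap25 (dashed) keep no such order.

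By list, the median r with Bc1 was 0.50 for the 17 pan-neuronal genes and 0.21 for 19 dendritic mRNAs. It was 0.27 for the 21 partner genes and 0.24 for 26 genes of the RNA polymerase III machinery. For 5 neuronal long noncoding RNAs it was 0.43, or 0.06 without vehicle library 3. Markers of oligodendrocytes and of oligodendrocyte progenitors had a median of 0.30 each, progenitor markers 0.23, astrocyte markers 0.14 and neuroblast markers 0.08. The microglial, choroid plexus and endothelial medians were -0.10, -0.24 and -0.43. Among neuronal genes the tubulin gene Tubb3 (0.92) and the RNA-binding protein gene Elavl3 (0.85) were high, and Gad2 (-0.37) and Elavl4 (-0.21) were low. Among partners, the poly(A)-binding protein gene Pabpc1 had 0.88 and the dendritic RNA transport gene Stau1 -0.86. With 1 library left out the dendritic median ran from -0.04 to 0.52, the partner median from 0.23 to 0.35 and the machinery median from 0.06 to 0.42. After quantile normalization the dendritic and partner medians were 0.06 and 0.07. The pan-neuronal median was 0.10 without vehicle library 3 and 0.46 to 0.68 without any other 1 library. With scaling to library totals that include Bc1 it was 0.16, and the dendritic, partner and machinery medians turned to -0.15, -0.21 and -0.22, where the median of all genes was -0.30.
Cytosolic ribosomal protein genes, added after their values were seen, had the highest median of the lists, 0.72 over 75 genes, of which 26 reached 0.8. Their summed normalized count was 26011, 15012 and 8782 in vehicle and 12961, 18924 and 30299 in Nrg-1β1. It was lowest in vehicle library 3 and highest in Nrg-1β1 library 3, as for Bc1. The median log2 value of these genes was 6.88, 7.08 and 5.50 in vehicle and 6.75, 7.32 and 7.76 in Nrg-1β1, so vehicle library 2 was highest of its group by the median and not by the sum. Of 78 such genes 5 rose and 0 fell in limma, with 38 at an unadjusted p under 0.05, and 1 was called with limma-voom. Their median difference was 0.81 against 0.03 over all genes, and 66 of them were above 0. After centring on library medians 17 were called. With 1 library left out their median difference was 0.32 to 1.14, and at most 1 was called.

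**Figure D5:**
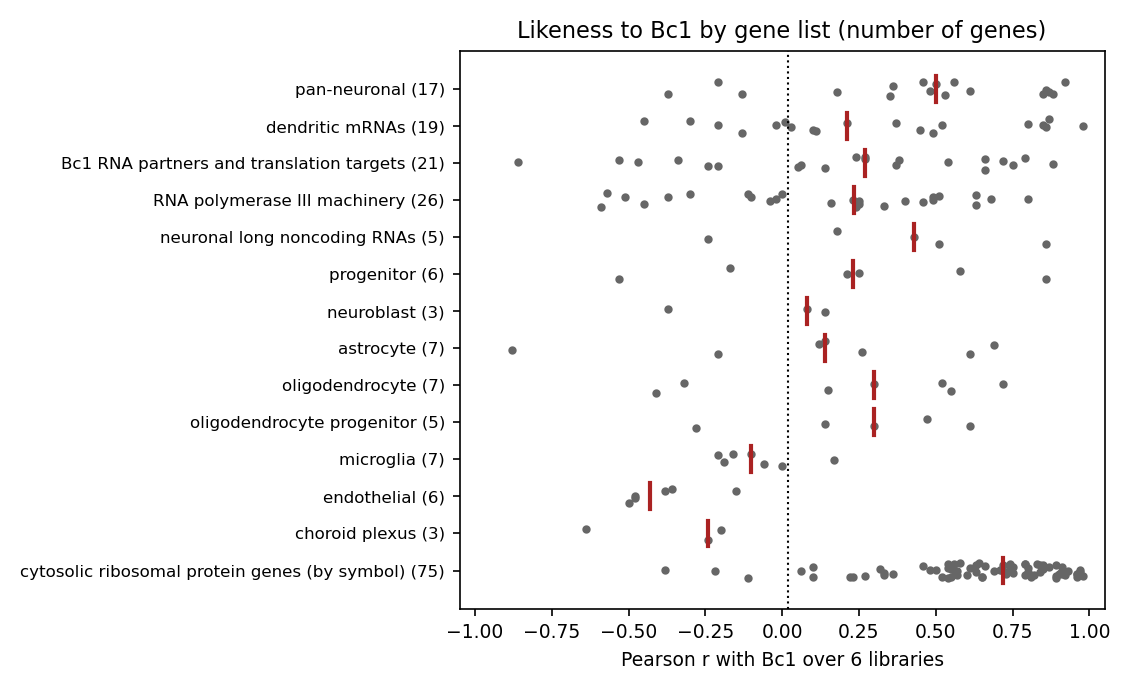
Pearson r with Bc1 over the 6 libraries for each gene of each list (grey points) with the list median (red bar), and the median over 10161 genes as a dotted line. Ribosomal protein genes cluster at high r (median 0.72), while the endothelial markers have the lowest median (-0.43). That endothelial median was 0.10 without vehicle library 3 and -0.75 without Nrg-1β1 library 1.

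The likeness to Bc1 was graded by transcript length. Among genes whose median GENCODE transcript was under 500 bases the median r was 0.28 (226 genes), at 500 to 1000 bases 0.09, at 1000 to 2000 bases 0.06, and at 2000 to 3000 bases -0.05. At 3000 to 5000 bases it was -0.15, and above that -0.23 (365 genes). A length was matched for 96.9% of genes by Ensembl identifier. The part that fragment size or RNA quality plays in the Bc1 values was not tested.

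Because Bc1 took up to 21.4% of a library, it bears on how the other genes are scaled. Under scaling to library totals, the Bc1 reads alone lower every other gene of Nrg-1β1 library 3 by 0.35 on the log2 scale and of vehicle library 2 by 0.12, and of the other 4 by at most 0.03. With totals that include Bc1, limma called 70 genes higher and 110 lower in Nrg-1β1. With totals that leave Bc1 out, it called 168 higher and 142 lower, so higher genes went from 38.9% to 54.2% of calls. The deposited scaling, which follows neither total, gave 89 higher and 127 lower (41.2% higher). The share of mitochondrial reads in Nrg-1β1 library 3 was 18.4% of all reads and 23.4% of reads other than Bc1, while in vehicle library 1, where it was highest, it was 47.4% and 48.2%.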

How the data were processed

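RNA-seq of 6 libraries (3 per group, each counted as 1 mouse) was analysed. The authors deposited 1 table of log2 values with 27102 rows, of which 6779 were blank. Trimming with Trimmomatic and alignment with Bowtie2 are listed per the submitters' processing notes. No version, genome build, counter, strand setting, scaling or filter is given in the sources used here. After unlogging and subtracting 4, values in each library fell on multiples of the worth of 1 read. For 100% of values the resulting read number was within 0.02 of an integer. That reading comes from the values. RefSeq named 980 of 1917 genes listed by number only, Bc1 among them.

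The comparison used limma 3.58.1 (R 4.3.3) with an intensity trend on the deposited log2 values. The model held group alone, covered 20323 genes, and was adjusted by Benjamini-Hochberg with a threshold of 0.05. All adjusted p-values are from limma. Since the values are logged, no count model was the main test; limma-voom on the recovered reads was an alternative. The fit was also run on simulated counts with the same spread setting for every gene. That setting cannot show how the fit behaves under the spread between libraries seen here. Shares have 95% exact Clopper-Pearson intervals. Without molecular identifiers, they cover counting error only. Depth ran from 567073 to 72953034 reads.

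Bc1 and the 14 lists were chosen with earlier results of these data known. Named genes are Bc1, Rbfox3 and Snap25; up to 4 changed members of a list or, with none, the 2 with the smallest p; the measured short RNAs; the 10 genes most like Bc1; and the 5 genes with most reads per library. Other genes were named after their values were seen.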

Additional observations from a re-analysis of the deposited data

How the results depend on the processing

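The Bc1 difference between groups stayed within its pooled SD under every alternative run, at 0.29 to 1.00 over the pseudocount and scaling alternatives and -0.81 to 2.11 with 1 library left out. The ratio of mean Bc1 shares was 2.13 to 2.69 with other denominators, 0.358 to 7.87 with 1 library left out, and 1.21 without vehicle library 2 and Nrg-1β1 library 3, chosen after the data were seen. Calls over all genes went from 216 to 129 with a pseudocount of 1, 499 with centring on library medians (335 higher, 67.1% of calls, and a median of all genes of 0.25 in place of 0.03), 65 with quantile normalization (18.5% higher), 49 when genes averaging under 50 normalized counts were left out (22.4% higher), and 22 with limma-voom (86.4% higher). They were 0 to 56 with 1 library left out, and 0 without vehicle library 2 and Nrg-1β1 library 3, where 3770 genes had an unadjusted p under 0.05. List members called went from 16 to 8 with that filter, 1 with limma-voom, 0 to 6 with 1 library left out, and 0 without those 2 libraries. Of the 10 genes most like Bc1, 1 remained among the highest 10 after centring and 2 to 5 with 1 library left out. With the replicate number as a block, 627 genes and 26 list members were called. Same-numbered libraries came from different animals and did not deviate together (correlations of -0.13, 0.00 and -0.18), so the numbers do not pair them. The Rbfox3 difference was -0.10 (without vehicle library 3) to 0.46 with 1 library left out, -0.08 of these without Nrg-1β1 library 2, and -0.08 without both Bc1-rich libraries. Rmrp was at 2.26 with limma-voom, which is not a rise, since it had no read in any Nrg-1β1 library. Vaultrc5 was at -0.01 (without Nrg-1β1 library 2) to 0.58 with 1 library left out. The cause of these shifts was not tested. With 567073 reads in the shallowest library, genes with few reads are limited by depth, while Bc1, with at least 2921 reads, is not.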
